A study of Mus musculus with 4 samples.

Results

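The genes that flank Tbx3 on mouse chromosome 5 were described through 251 array probes, which stand for 168 genes or transcribed sequences, of 28806 probes and 19099 genes or sequences measured in all. They were chosen by position and brightness. Candidates were all non-control probes placed within 5 Mb of the brighter Tbx3 probe in mouse build mm7, between 113918450 and 123918450. Members were those well above background in the red or the green channel on 3 arrays or more of 4. Tbx3 itself and Tbx5, Dtx1 and Atp2a2 were left out of the set. The interval held 323 probes, or 314 without those 4 genes, and 63 of the 314 were too dim to be members. Of the 168, 133 carry a gene name and 35 are sequences known only by the name in the array design. The window has 93 probes on the proximal side, towards the start of the chromosome, and 158 on the distal side. No ratio entered this rule, although it was set with earlier results of these data known.

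RNA came from the atrioventricular canal of mouse embryo hearts at e10.5, and each sample pooled tissue from 5 hearts. Wild type control RNA was labelled with Cy3 and Tbx3 mutant RNA with Cy5, and the series title calls the mutant hypomorphic, that is, a mutant with reduced gene function. Each of 4 arrays compared 1 control pool with 1 mutant pool, and both channels are labelled as 50% Sv129 and 50% C57Bl6 in background. The labels give neither the structure of the Tbx3 allele nor the strain from which the chromosome around it came. The dyes ran the same way on all 4 arrays, so genotype and a dye effect particular to a probe cannot be told apart. All values are log2 ratios of mutant over control unless called levels, so 1 unit is a change of 2 fold, and errors are SD over n = 4 arrays.

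Tbx3 encodes a T-box transcription factor that represses the chamber muscle programme and is expressed in the atrioventricular canal and the later conduction system. It lies beside Tbx5, another T-box gene of the heart, in a stretch of chromosome with few genes, where regulatory elements can lie far from the promoters they act on. The genes on either side of this stretch are a mixed company. They include general housekeeping genes, a Ras pathway phosphatase, a ventricular myosin light chain and a cluster of interferon-induced antiviral genes.

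Each array spot is a 60-base oligonucleotide, and the sequences of 7 probes are given because the values below turn on them, each 5′ to 3′ in lower case and as the array files give it. The Tesc probe has the largest positive ratio of the window, the Pebp1, Rplp0 and Rpl6 probes belong to genes whose probes gave the same sign, and the Myl2 probe belongs to the heart muscle gene of the set. The probes of Aldh2 and Ptpn11 shown belong to genes whose probes gave different ratios.
Tesc, chr5:117290597-117290656: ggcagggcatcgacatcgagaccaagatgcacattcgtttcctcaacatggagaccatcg
Pebp1, chr5:116513036-116513095: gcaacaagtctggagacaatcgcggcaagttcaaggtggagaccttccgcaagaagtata
Rplp0, chr5:114782273-114782332: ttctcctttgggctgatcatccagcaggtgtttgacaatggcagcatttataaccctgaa
Rpl6, chr5:120442541-120442806: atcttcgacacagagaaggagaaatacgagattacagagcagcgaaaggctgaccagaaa
Myl2, chr5:121338175-121339125: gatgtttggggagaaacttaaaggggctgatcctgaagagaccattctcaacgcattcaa
Aldh2, chr5:120806389-120806942: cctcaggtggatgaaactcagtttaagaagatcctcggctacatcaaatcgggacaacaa
Ptpn11, chr5:120396747-120396806: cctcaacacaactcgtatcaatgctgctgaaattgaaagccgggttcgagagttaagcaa
The mm7 positions of the Rpl6, Myl2 and Aldh2 probes span more than 60 bases, so each of these crosses at least 1 intron and reads spliced RNA. Among all members, 32 probes do so. The files place Tesc, Rplp0, Rpl6 and Myl2 on the plus strand and Pebp1, Aldh2 and Ptpn11 on the minus strand.

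The brighter Tbx3 probe stood at -1.35, -1.40, -1.43 and -1.21 on arrays 1 to 4. Its mean was -1.35 ± 0.10, or 2.55 fold lower in the mutant pools, with an adjusted p of 0.0505 over all probes. The other, dimmer Tbx3 probe had a mean of -0.14 ± 0.12. All 7 myocardium markers and all 7 markers of the atrioventricular canal were measured, with list medians of 0.57 and -0.38. The myocardium markers other than Nkx2-5, which was at -0.08, had a mean log2 intensity above 16. Over all 331 probes of such brightness the median was 0.35. The medians were 0.32 for chamber myocardium, -0.26 for cushion mesenchyme, 0.07 for endocardium and 0.12 for epicardium. The 5 erythroid markers had medians of 1.97, 0.99, -0.22 and 0.11 on arrays 1 to 4, so arrays 1 and 2 were the high ones. Among them Hbb-y, Hbb-bh1 and Hba-x were also of that brightness. Array 2 stood apart from the rest: its log2 ratios had an SD of 0.45 over all probes, against 0.26 to 0.28 on the other arrays, and its correlation with each of the others lay between -0.06 and 0.07. On array 2 the median of 5 measured markers of uterus and decidua was -3.07 and that of 5 leukocyte markers was -1.73. On the other arrays these medians lay between -0.26 and 0.34 and between -0.25 and 0.16. For liver, 1 of 4 markers was measured, Afp, at 2.58, 1.73, 1.35 and -0.63, with array 4 below 0.

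No flanking probe passed the test across the genome. The count was 0 of 251 at an adjusted p under 0.05 (limma, Benjamini-Hochberg), against a background of 0.0%, since none of the 28806 probes passed. The smallest adjusted p among members was 0.111. At an unadjusted p under 0.05 there were 54 members, or 21.5%, beside 13.7% of all probes and 213 of 1522 probes on the rest of chromosome 5. Of these, 23 were higher in the mutant, where the share over all probes was 7.55%, and 31 were lower, where it was 6.15%. The sign was the same on all 4 arrays for 73 members, or 29.1%, beside 23.7% of all probes. That count divided into 36 higher on every array, where the background was 13.0%, and 37 lower, where it was 10.7%. A mean beyond 0.5 in either direction was seen for 14 members, or 5.58%, against 2.56% of all probes. Without array 3 the members with an unadjusted p under 0.05 numbered 31, or 12.4%, beside 7.30% of all probes. No test of these shares was made.

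The flanking region as a whole was centred where the array was. The median over the members was 0.0012 for the mean ratio, beside 0.01 for all probes and 0.01 for the rest of the chromosome. On arrays 1 to 4 the members' medians were -0.00087, 0.06, -0.01 and -0.03. The higher and lower members were thus nearly equal in number, with 126 means above 0 and 125 below.

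**Figure D1:**
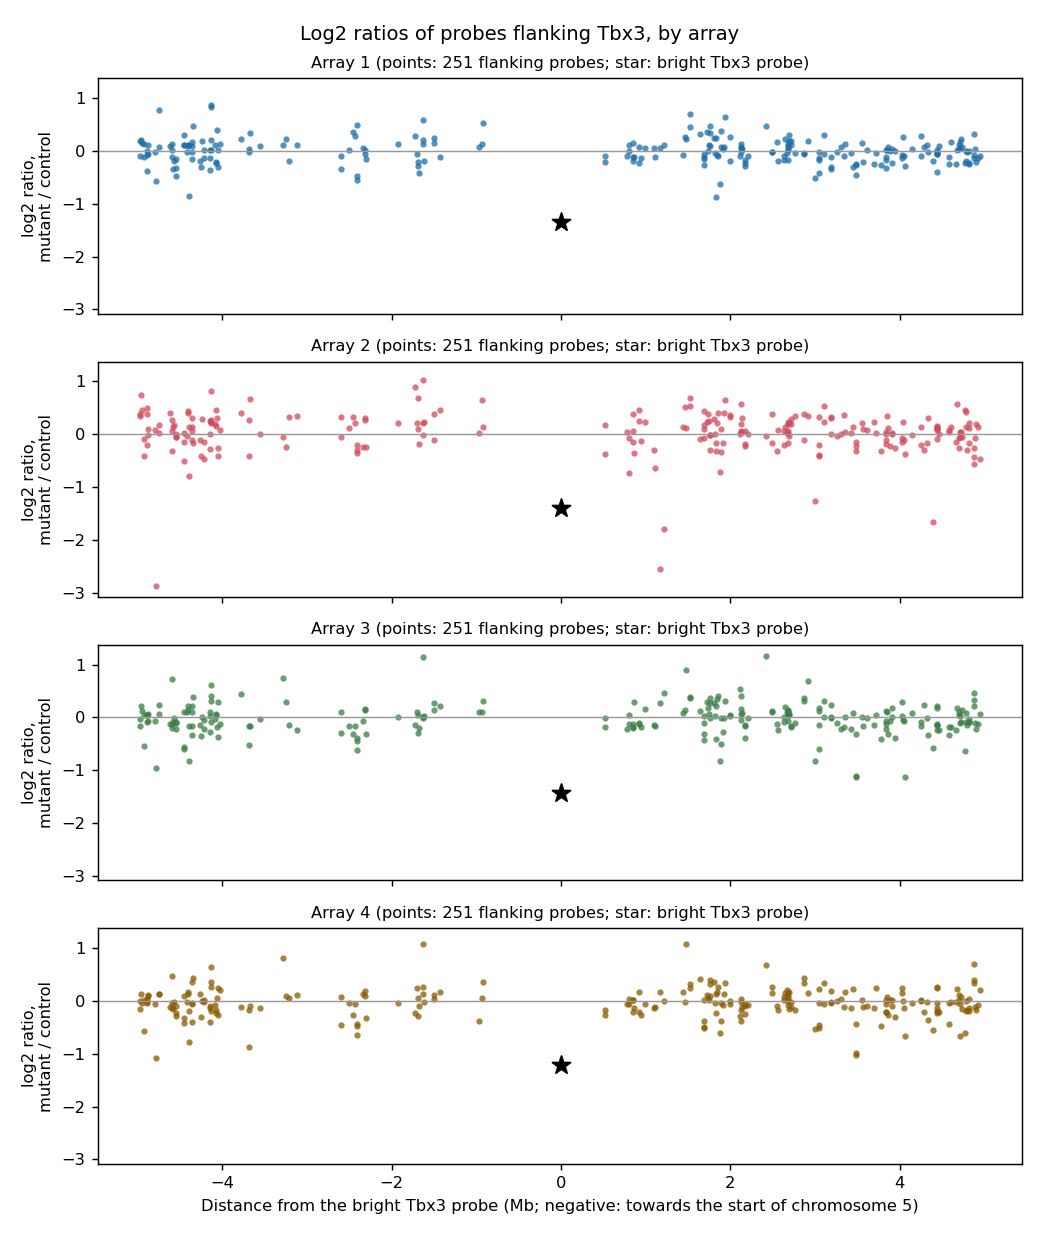
Log2 ratio of mutant over control for each of the 251 flanking probes, one panel per array, against distance from the brighter Tbx3 probe in Mb. Tbx3, drawn as a star, lies between -1.43 and -1.21 on the 4 arrays, while the flanking points lie around 0 on both sides, and 4 points of array 2 lie lower than its Tbx3 value of -1.40.

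By the median absolute ratio, probes within 1 Mb of Tbx3 lay no farther from 0 than those beyond. Within 1 Mb there were 16 probes of 12 genes, with a median of -0.03. Between 1 and 2.5 Mb the median was 0.07 over 69 probes, and between 2.5 and 5 Mb it was -0.0093 over 166 probes. An unadjusted p under 0.05 was found for 3 (18.8%), 18 (26.1%) and 33 (19.9%) probes in the same order, beside 13.7% of all probes. The median of the absolute ratio was 0.08, 0.15 and 0.09 in that order too, so the middle class held the widest spread. Over the 251 probes Spearman's rho of the absolute ratio with distance was -0.11, given as a description, since probes of a gene share RNA and all share the same 4 arrays. The nearest member on the proximal side was Med13l at 0.93 Mb, and the nearest on the distal side was Rbm19 at 0.51 Mb.

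Med13l and Rbm19, the genes on either side of the gene-poor stretch, stood on opposite sides of 0. Med13l encodes a subunit of the kinase module of the Mediator complex. Its brightest probe gave 0.53, 0.14, 0.31 and 0.35, a mean of 0.33 ± 0.16, with an unadjusted p of 0.00777 and an adjusted p of 0.223. All 4 arrays were positive, yet the other probes of Med13l had means of 0.23 ± 0.28 and -0.04 ± 0.23. Rbm19 encodes an RNA-binding protein of ribosome biogenesis. Its single probe gave -0.22, -0.38, -0.19 and -0.26, a mean of -0.26 ± 0.09, with an unadjusted p of 0.00795 and an adjusted p of 0.223. In folds, the brightest Med13l probe was 1.26 higher in the mutant pools.

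The other genes within 1 Mb lay distal, and most were near 0. Ddx54, which encodes an RNA helicase of the DEAD-box family, gave -0.14, -0.13, -0.18 and -0.26 (mean -0.18 ± 0.06), with an unadjusted p of 0.0293 and an adjusted p of 0.312. It was below 0 on every array. Tpcn1, a cation channel of endosomes and lysosomes, had a mean of -0.11 ± 0.13 at its brighter probe and 0.01 ± 0.27 at the other. Sdsl, a serine dehydratase-like gene, was at -0.09 ± 0.10, Slc8b1, a mitochondrial sodium-calcium exchanger, was at -0.03 ± 0.13, and Rasal1, a GTPase-activating protein for Ras, was at 0.09 ± 0.12. Iqcd was at 0.05 ± 0.29 and Rita1, a Notch pathway regulator, at 0.02 ± 0.22. The brighter Plbd2 probe was at 0.11, 0.05 and -0.07 on arrays 1, 3 and 4 and at -0.73 on array 2, so its SD of 0.39 came from that array.

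Among the 9 measured of the 13 listed neighbours of Tbx3 and Tbx5, 5 had an unadjusted p under 0.05 at their brightest probe, beside 14.6% of all genes by the same count. Those 5 had the same sign on all 4 arrays, where the share of all genes is 24.9%. Besides Med13l and Rbm19 they were Tesc, Rnft2 and Fbxo21. The list was chosen with earlier results known. It leaves out measured genes nearer to Tbx3 than some it holds, such as Tpcn1 at 0.85 Mb, Ddx54 at 0.94 Mb and Spring1 at 1.43 Mb. No excess among neighbours is therefore read from this count. Tesc encodes tescalcin, a calcium-binding protein that interacts with a sodium-hydrogen exchanger, and lies 1.63 Mb proximal. The levels of its probe were 11.89, 11.63, 11.77 and 11.70 in the control pools and 12.47, 12.65, 12.92 and 12.78 in the mutant pools, on a log2 scale. The groups did not overlap, but Tesc was named for its large ratio, and the share of all probes without overlap is not given. The ratios were 0.58, 1.02, 1.15 and 1.08 on arrays 1 to 4, a mean of 0.96 ± 0.26 or 1.94 fold higher in the mutant, with an unadjusted p of 0.000158 and an adjusted p of 0.13. Tesc had the highest mean of all 251 members, measured by 1 probe. Rnft2, a RING finger transmembrane gene, was at 0.26 ± 0.11. Fbxo21, an F-box gene of ubiquitin ligases, was at -0.22 ± 0.14 at its brightest probe, with -0.02 ± 0.48 and 0.13 ± 0.13 at the others. Nos1, the neuronal nitric oxide synthase, gave 0.28, 0.89, -0.15 and -0.23 and so had no common sign.

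**Figure D2:**
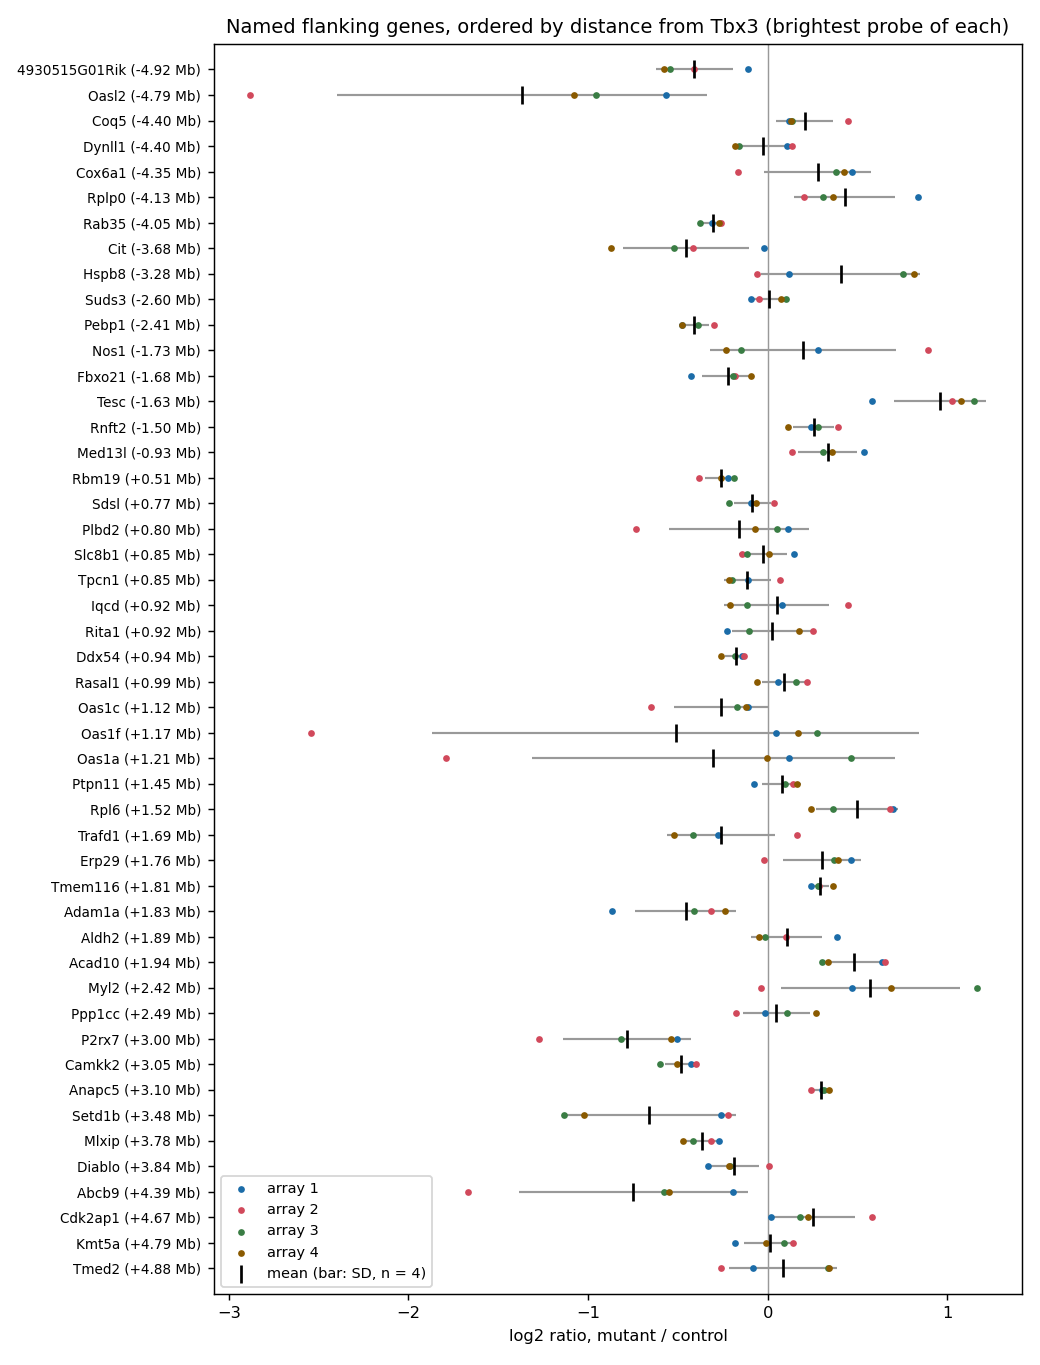
Log2 ratio of mutant over control on each array (coloured points) with the mean and SD over 4 arrays (black tick and grey bar) for the brightest probe of 48 flanking genes, from the most proximal at the top to the most distal at the bottom. Tesc lies to the right of 0 on every array, Oasl2 and P2rx7 to the left, and the widest bars belong to Oas1f, Oasl2 and Oas1a.

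In the group of Ras, MAP kinase and adhesion signalling, 15 of 18 listed genes were measured, and the 5 with an unadjusted p under 0.05 at their brightest probe were all lower in the mutant pools. Over all genes the share with such a p is 14.6%, of which 7.12% are higher and 7.48% lower. The 5 were Pebp1, Camkk2, Cit, Pxn and Rab35. The Cit probe so counted lies on the strand opposite to the other 2 Cit probes, which were at 0.24 and -0.01. The median of the group was 0.0034, near that of all genes. Pebp1 encodes the Raf kinase inhibitor protein. Its brighter probe gave -0.48, -0.30, -0.39 and -0.48, a mean of -0.41 ± 0.08 with an unadjusted p of 0.000925 and an adjusted p of 0.156. Its other probe gave -0.55, -0.36, -0.61 and -0.65, a mean of -0.54 ± 0.13 with an adjusted p of 0.141. The 2 Pebp1 probes were below 0 on every array, at 1.33 and 1.46 fold lower.

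Camkk2, a kinase that activates AMP-activated kinase in response to calcium, gave -0.43, -0.40, -0.60 and -0.51 at its brighter probe. The mean was -0.48 ± 0.09 with an adjusted p of 0.143, while the dimmer probe had mixed signs and a mean of -0.11 ± 0.32. Rab35, a small GTPase of endosomal recycling, gave -0.31, -0.26, -0.38 and -0.27 (mean -0.31 ± 0.05, adjusted p = 0.174). Pxn encodes paxillin, an adaptor of focal adhesions, and its brightest probe was at -0.33 ± 0.06, although its others were at 0.03 ± 0.18 and -0.02 ± 0.07. Ptpn11 encodes SHP2, the phosphatase that couples receptors to Ras. Its brightest probe was near 0, at 0.08 ± 0.11, but the Ptpn11 probe shown above gave 0.23, 0.11, 0.90 and 1.07, a mean of 0.58 ± 0.48, and another gave 0.23 ± 0.23.

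All 8 listed muscle and heart genes were measured. An unadjusted p under 0.05 was found for 3, Tesc and Myl2 higher and Camkk2 lower, where the share of all genes is 14.6%. Myl2 encodes the ventricular regulatory myosin light chain. Its levels were 16.40, 16.56, 16.09 and 16.29 in the control pools and 16.87, 16.52, 17.25 and 16.97 in the mutant pools. Only on array 2 was the mutant pool not the higher of the pair. The ratios were 0.47, -0.04, 1.17 and 0.68, with a mean of 0.57 ± 0.50 and an adjusted p of 0.299, and without array 2 the mean was 0.77 with an adjusted p of 0.073. The whole myocardium list, of which Myl2 is part, had a median of 0.57. The share of muscle in the pools and the level per cell therefore cannot be told apart for Myl2. Most of that list is very bright, with a mean log2 intensity above 16. Over all 331 probes of such brightness the median was 0.35. The part of brightness in the list median was not tested. Hspb8, a small heat shock protein of muscle, gave 0.12, -0.06, 0.75 and 0.81, and its high values were those of arrays 3 and 4. Median ratios of the group were 0.02, 0.05, 0.10 and 0.17 on arrays 1 to 4.

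The ribosomal protein genes of the window stood above 0 while several genes of RNA processing stood below it. Of 18 listed genes of ribosome, RNA processing and translation 17 were measured, and the median was -0.04. An unadjusted p under 0.05 was found for 2 that were higher, where the share of all genes is 7.12%, and for 3 that were lower, where it is 7.48%. Rplp0, a protein of the ribosomal stalk, gave 0.84, 0.20, 0.31 and 0.36 at its brightest probe (mean 0.43 ± 0.28, adjusted p = 0.244). Its second probe gave 0.87, 0.82, 0.62 and 0.63 (mean 0.73 ± 0.13, adjusted p = 0.111). Rpl6, of the large ribosomal subunit, gave 0.70, 0.68, 0.36 and 0.24 at the probe shown above (mean 0.50 ± 0.23) and 0.42 ± 0.09 at its other probe. Every Rplp0 and Rpl6 probe was above 0 on every array. Both genes have many processed copies in the genome, which these probes may also read.

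The lower members of that group were Rbm19, Ddx54 and Pop5, a subunit of RNase P, whose brightest probe was at -0.33 ± 0.31 with array 1 above 0. Very bright probes stood above 0 across the array: of 7 members with a mean log2 intensity above 16, 6 had a mean above 0 and their median was 0.43, but over all 331 probes of that brightness the median was 0.35. With the running median over intensity removed, these medians were 0.12 and 0.02. The Rplp0 probes then stood at 0.25 and -0.14, the Rpl6 probes at 0.27 and 0.35, and Myl2 at 0.27. Cox6a1, a subunit of cytochrome oxidase and also very bright, went from 0.28 ± 0.30 to -0.32.

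Of 11 listed mitochondrial enzymes 9 were measured. A count of 2, both higher, had an unadjusted p under 0.05, and with 14.6% of all genes passing the same threshold nothing is read from it. Acad10, an acyl-CoA dehydrogenase, gave 0.64, 0.65, 0.30 and 0.34 (mean 0.48 ± 0.19, adjusted p = 0.161) and was above 0 on every array. Coq5, a methyltransferase of ubiquinone synthesis, was at 0.21 ± 0.16 and 0.22 ± 0.13 at its 2 probes. Aldh2, the mitochondrial aldehyde dehydrogenase, was the gene whose probes differed most. The bright probe, shown above, gave 0.38, 0.10, -0.01 and -0.05 (mean 0.10 ± 0.20), whereas the dim probe gave -0.63, -0.71, -0.82 and -0.61. The dim Aldh2 probe was well above background in all 4 control pools and in none of the mutant pools, so it became a member through the control channel, its ratio is only a bound, at least 1.62 fold higher in control, and no test of it is given. That bound sets the mean of the control pools against the dim channel's own mean, after normalization of each channel across arrays. The list as a whole had a median of 0.10.

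Among chromatin and transcription genes, 10 of 14 listed were measured, with a median of -0.0071, and 4 had an unadjusted p under 0.05, beside 14.6% of all genes. Med13l, described above, was among them, as were Setd1b and Mlxip, both lower. Setd1b encodes a histone H3 lysine 4 methyltransferase. Its 2 probes overlap by 30 bases, tttggcgttccgaaccaatccctgtagata, shown because the probes are not independent measures. They gave -0.26, -0.22, -1.13 and -1.02 at the brighter and -0.25, -0.32, -1.10 and -0.99 at the other, means of -0.66 ± 0.49 and -0.66 ± 0.44. Arrays 3 and 4 carried most of the difference. Mlxip, a glucose-responsive transcription factor also called MondoA, gave -0.27, -0.31, -0.42 and -0.47 (mean -0.37 ± 0.09, adjusted p = 0.161). Suds3 and Kmt5a, both bright members of the list, were at 0.01 ± 0.09 and 0.01 ± 0.14 at their brightest probes. The other Suds3 probe was at -0.19, and the other Kmt5a probes were at 0.04 and -0.26.

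All 12 listed cell division genes were measured, with a median of 0.03. Anapc5, a subunit of the anaphase-promoting complex, gave 0.30, 0.24, 0.31 and 0.34 at its brighter probe (mean 0.30 ± 0.04, adjusted p = 0.175), though the other was at 0.10 ± 0.29. With the running median over intensity removed the brighter one was at 0.12. Rad9b, a checkpoint gene, was at 0.18 ± 0.04 and Rfc5, a subunit of the clamp loader of DNA replication, at -0.26 ± 0.08. Cit, the citron kinase of cytokinesis, had its brightest probe at -0.46 ± 0.35, but that probe lies on the strand opposite to the other 2 Cit probes, which were at 0.24 ± 0.25 and -0.01 ± 0.21. Cdk2ap1 was at 0.25 ± 0.24 and Ppp1cc, a catalytic subunit of protein phosphatase 1, at 0.05 ± 0.19.

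Of 22 listed vesicle, membrane and cilium genes 19 were measured, 5 with a mean above 0 and 14 below, and the median was -0.08. At an unadjusted p under 0.05, 3 were lower (P2rx7, Rab35 and Pitpnm2) and 1 higher (Erp29), where the shares of all genes are 7.48% and 7.12%. P2rx7 encodes an ATP-gated cation channel. The levels of its probe were 8.27, 8.81, 8.63 and 8.44 in the control pools and 7.77, 7.54, 7.81 and 7.90 in the mutant pools. The groups did not overlap, but this gene was named for its large ratio, and the share of all probes without overlap is not given. The P2rx7 ratios were -0.51, -1.27, -0.82 and -0.54, a mean of -0.78 ± 0.36 or 1.72 fold lower, with an adjusted p of 0.161. Erp29, a chaperone of the endoplasmic reticulum, was at 0.30 ± 0.22, and Dynll1, the dynein light chain, at -0.03 ± 0.17.

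Other members with the same sign on every array, outside these groups, included Adam1a, a gene of the ADAM metalloprotease family, at -0.46 ± 0.28. The brighter Tmem116 probe was another, at 0.29 ± 0.05, while the other Tmem116 probe was at 0.11. Both Tmem116 probes were dim, with mean log2 intensities of 6.82 and 6.41. The uncharacterised gene 4930515G01Rik was at -0.41 ± 0.21. Its probe was dim, well above background in 4 control pools but in only 2 mutant pools, which limits this ratio. A sequence known only by its array name, 4.40 Mb proximal of Tbx3, gave -0.86, -0.79, -0.83 and -0.78, a mean of -0.81 ± 0.04, and had the smallest unadjusted p of the window, 1.37e-05, with an adjusted p of 0.111. It was singled out after its values were seen. Another such sequence, 4.06 Mb distal, was at -0.61 ± 0.38.

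The interferon-induced oligoadenylate synthetases, enzymes that sense viral double-stranded RNA, held the widest spread. Of 13 listed antiviral genes 6 were measured, and all 6 had a mean below 0, with a median of -0.28. The medians were -0.03, -1.22, -0.16 and -0.13 on arrays 1 to 4, so array 2 set the size. Oas1f levels were 7.05, 9.83, 7.03 and 6.99 in the control pools and 7.09, 7.29, 7.30 and 7.16 in the mutant pools. The control pool of array 2 thus stood alone, and the ratios were 0.05, -2.54, 0.27 and 0.17, with a mean of -0.51 ± 1.36. Oas1a levels were 6.72, 9.46, 6.63 and 6.62 in the control pools and 6.83, 7.67, 7.10 and 6.61 in the mutant pools, and both pools of array 2 were the highest of their group. Without array 2 the means of Oas1f and Oas1a were 0.16 and 0.19, above 0.

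Oasl2, a related gene 4.79 Mb away on the other side of Tbx3, was lower in the mutant pool on every array. Its levels were 7.65, 10.42, 8.06 and 7.77 in the control pools and 7.09, 7.54, 7.10 and 6.70 in the mutant pools. Each control pool was above every mutant pool, but the share of all probes so separated is not given. The ratios were -0.56, -2.88, -0.96 and -1.08. The mean was -1.37 ± 1.03 with an adjusted p of 0.246, and without array 2 it was -0.87 with an adjusted p of 0.0535. Oas1c gave -0.11, -0.65, -0.17 and -0.12, Oas1e had a mean of -0.13 ± 0.15, and Trafd1, a feedback regulator of innate immunity, gave -0.28, 0.16, -0.42 and -0.52. The measured uterus and leukocyte markers other than Wnt7a were also low on array 2, and their part in these values was not tested.

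**Figure D3:**
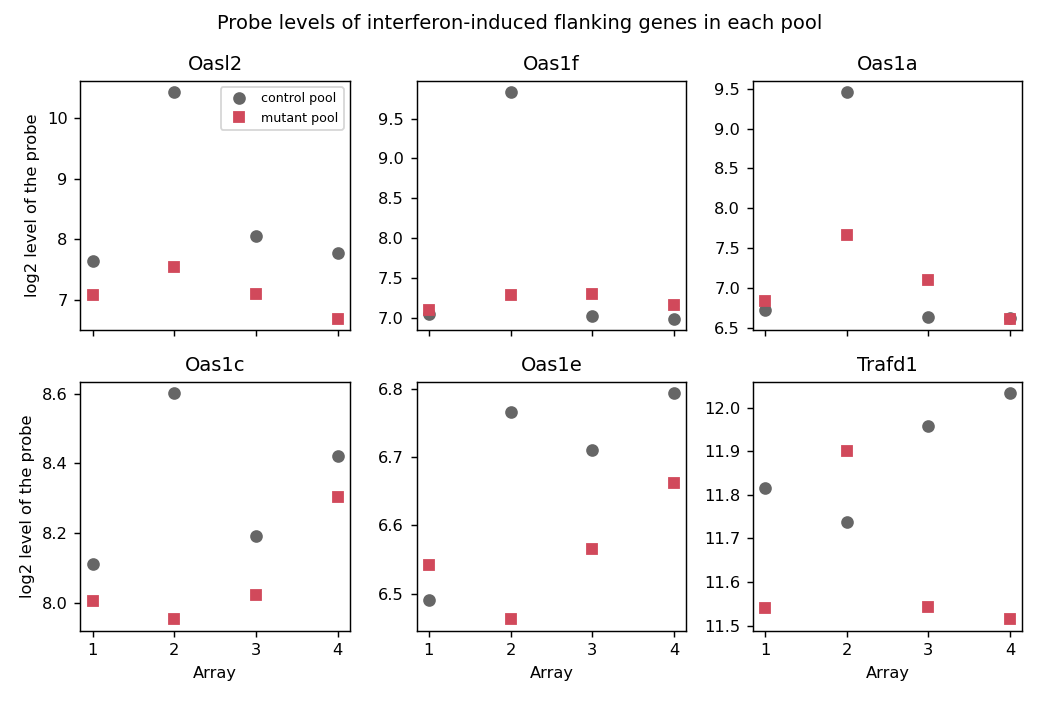
Log2 level of the brightest probe of 6 interferon-induced flanking genes in the control pool (grey circles) and the mutant pool (red squares) of each array, each panel with its own vertical scale. For Oasl2, Oas1f and Oas1a the control pool of array 2 is the highest value, at 10.42, 9.83 and 9.46.

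Array 2 lay farthest from the median of the 4 arrays for 117 of 251 members, against 55 for array 1, 38 for array 3 and 41 for array 4. The same count over all probes is not given. Array 2 also had the widest spread over all probes, so the count is not read as particular to the members. Over the 251 probes the correlation of array 2 with the mean of the other arrays was 0.37, whereas arrays 3 and 4 had a correlation of 0.85 (a description, since probes share the arrays). Abcb9, a lysosomal peptide transporter, was at -0.20, -0.58 and -0.55 on arrays 1, 3 and 4 and at -1.67 on array 2. Its mean of -0.75 ± 0.64 became -0.44 without that array.

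With array 2 left out, 4 members passed an adjusted p under 0.05 (limma), or 1.59%, against 0.719% of all probes, and 69 had an unadjusted p under 0.05, or 27.5%, against 22.9%. One of the 4 was the dim Aldh2 probe, for which the call says nothing, as its mutant channel was not well above background. The other 3 were the second Rplp0 probe at 0.70, the Pebp1 probe shown above at -0.60 and the unnamed sequence 4.40 Mb proximal at -0.82. Their adjusted p values were 0.0459, 0.042 and 0.0346. Tesc then had an adjusted p of 0.0546 and a mean of 0.93.

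Several genes were read by more than 1 probe, which shows how far a ratio belongs to the gene. There were 59 such genes with 142 probes, up to 5 a gene. All probes of a gene had means of the same sign in 36 and of mixed sign in 23. The same counts over all genes of the array with several probes are not given, so these describe the window only. The median range between the means of a gene's probes was 0.16, it was under 0.2 in 36 genes, and it was over 0.5 in 2, Aldh2, whose dim probe gives only a bound, and Cit. Between the brightest and the second probe the correlation over the 59 genes was 0.50, as a description. Rplp0, Rpl6, Pebp1 and Setd1b had means beyond 0.4 with the same sign at both probes. The Setd1b probes share 30 bases, so their agreement is not independent. The Rplp0 probes are very bright, and with the running median over intensity removed they stood at 0.25 and -0.14. The Rpl6 probes then stood at 0.35 and 0.27.

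**Figure D4:**
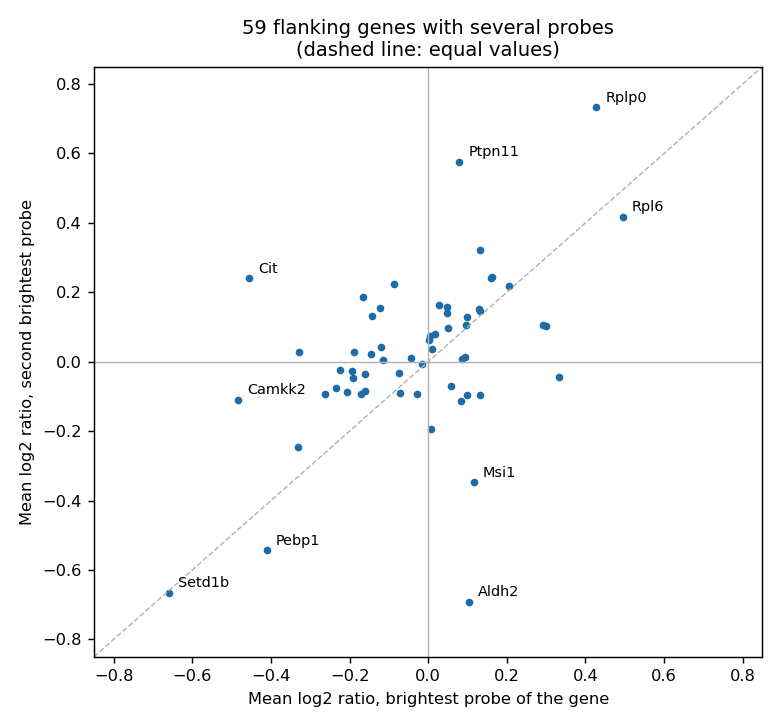
Mean log2 ratio over 4 arrays of the second brightest probe against that of the brightest probe for the 59 flanking genes with several probes, with a dashed line of equal values. Rplp0 and Rpl6 lie at the upper right, Pebp1 and Setd1b at the lower left, and Aldh2 (0.10 and, at a probe dim in every mutant pool, -0.69) and Cit (-0.46 and 0.24) lie off the line.

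At the edges of the window, Git2 and Tchp just inside the proximal limit were at 0.13 ± 0.19 and -0.02 ± 0.24, and Gltp just outside it was at -0.17 ± 0.07. On the distal side Gtf2h3 and Tctn2 inside were at -0.05 ± 0.12 and -0.08 ± 0.29, and 2 probes of Atp6v0a2 outside were at -0.18 ± 0.15 and -0.27 ± 0.10. Of the genes left out, the brighter Tbx5 probe was at -0.03 ± 0.41, Dtx1 at -0.32 ± 0.15 and the brightest Atp2a2 probe at 0.47 ± 0.34.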

How the data were processed

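For each of 4 arrays of 45018 spots the authors deposited 1 file written by Agilent Feature Extraction 9.5.1, a version the submitters' processing notes name. The intensity columns deposited are mean pixel signals with the local background beside them, and processed intensity signals that the software had background-subtracted and dye-normalized. The log10 ratio that the authors deposited sets red against green, and the deposited series table repeats it to within 5e-07, on the same log10 scale and in the same direction, with column medians of 0. No annotation of mm7 was used, so exons and untranslated regions are not stated.

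Intensities were corrected with normexp (offset 50) and normalized by loess within each array, with control spots at weight 0 and non-uniform spots left out. Spots of a probe were averaged. The log2 ratio was tested against 0, 2-sided, with limma 3.58.1 (R 4.3.3, lmFit and eBayes), adjusted over 28806 probes, and the code was tested on simulated data. Levels are after loess and Aquantile. None of the member probes was saturated, and 232 of 251 were well above background in both channels on all arrays. Member probes were named from a RefSeq gene table (GRCm38.p6), 161 by accession, 37 by symbol and 18 by synonym, and 35 kept the file's name. Of the named ones 215 lie on chromosome 5 in that table and 1, Cd8b1, does not.

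Members, role lists and marker lists were chosen with earlier results of these data known. Genes were named by rule: all within 1 Mb, up to 10 in each direction with the largest mean among those with the same sign on 4 arrays, 5 with the largest SD, 5 with the smallest unadjusted p, and up to 3 of the brightest of each role list. The brightest probe stood for a gene. One gene that the rule names is not reported here. Other genes that the text names to complete a count (Pxn, Pop5, Rad9b, Rfc5, Pitpnm2, Oas1e) and those at the window's edges fall outside that rule. The number of arrays limits the precision. All arrays lay on 1 slide and in 1 scan, so no batch could be tested. The labels call the pools biological replicates.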

Additional observations from a re-analysis of the deposited data

Results flagged for a closer look

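In 4 named genes 1 array lay far from the other 3, and in each it was array 2. Oas1f was at -2.54 there, against values between 0.05 and 0.27 on the other arrays. Oas1c was at -0.65, against -0.17 to -0.11. Coq5 was at 0.44, against 0.12 to 0.13. Cox6a1 was at -0.17, against 0.38 to 0.47. Over all members, 19 of 251 had an array that far from the rest. Chance alone marks about 5% of groups in this way, if all arrays spread alike. Array 2 spread more widely over all probes, and the share of all probes so marked is not given. No excess among the members is therefore read from the count.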

How the results depend on the processing

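With each array centred on its median in place of loess, the median of all probes moved to 0.21 and that of the members to 0.21 (0.20 within 1 Mb). Then 98 members passed the adjusted threshold, 39.0% beside 37.6% of all probes. Under that setting 130 members (51.8%, beside 50.4% of all probes) had an unadjusted p under 0.05. The sign was the same on all arrays for 155 members (61.8%, beside 58.8%). Of 49 named genes, 12 changed sign against the loess values. Among these were 5 that had the same sign on all 4 arrays after loess. Dynll1, Fbxo21, Tpcn1 and Ddx54 turned positive at 0.71, 0.32, 0.32 and 0.39. The cause was not tested beyond this common shift. Same-numbered pools share an array, so the ratio holds the replicate block. Without the replicate block, with channels as unpaired groups, 9 members passed, 3.59% beside 0.562% of all probes, among them Tesc, P2rx7, Camkk2, both Pebp1 probes and the dim Aldh2 probe, which holds only a bound. A window of 2 Mb held 62 probes, of which 16 had an unadjusted p under 0.05 and 18 the same sign, with a median of 0.0531, where the shares of all probes are 13.7% and 23.7%. A window of 1 Mb held 16 probes, 3 with such a p and 4 with the same sign. Leaving out each array in turn gave 0 to 4 members past the threshold, with array 2 giving the 4. It gave 31 to 69 with an unadjusted p under 0.05, the lowest without array 3 (12.4%, beside 7.30% of all probes) and the highest without array 2 (27.5%, beside 22.9%). It gave 84 to 125 with the same sign on the arrays kept, or 33.5% without array 3 and 49.8% without array 2, beside 31.8% and 46.0% of all probes. No member passed with the scanner's processed signals, with the running median removed, with other filters on dim probes, with non-uniform spots kept, or with population outlier spots left out, an alternative chosen after seeing the data. Low signal limits what dim probes such as that of Aldh2 can show.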
